A study of Mus musculus with 30 samples.

Results

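The core circadian clock was followed through 10 genes, the activators Arntl, Clock and Rora and the repressors Per1, Per2, Per3, Cry1, Nr1d1, Nr1d2 and Ciart, in liver and skeletal muscle of mice on 3 diets. They are 10 of the 16593 genes that the array annotation names, found by symbol, and they were measured by 19 probes. Male C57BL/6J mice received SRT2104, an activator of the deacetylase SIRT1, at 1.33 g per kg of chow (about 100 mg per kg of body weight a day), or calorie restriction (CR) by 40%, or the standard diet (SD) without drug and without restriction. All 3 diets were AIN-93G chow, begun at 28 weeks of age. Each tissue and diet had 5 arrays, 30 in all. The labels of the CR samples give 41 weeks of age and 14 weeks of diet, those of the SRT2104 and SD samples put sampling at life's end, and the design notes speak of 5 mice per diet after 41 weeks. For the array samples, the study's methods give the age and diet time of the CR labels, with no group set apart. These sources differ, and if CR mice were of another age than the rest, diet and age cannot be told apart. Whether a liver and a muscle of equal number came from 1 mouse the labels do not say, and p-values measure the spread between these arrays. No hour of sampling and no hour of feeding was given in the sources used here, so that a change in the mean level of a clock gene and a shift in its daily phase cannot be told apart.

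The mammalian clock is a feedback loop of transcription that runs in most cells with a period of about a day. Arntl (also called Bmal1) and Clock form a pair that binds E-box sequences and switches on the Per, Cry, Nr1d and Ciart genes, whose proteins then shut the pair down or, in the case of Nr1d1 and Nr1d2 (the REV-ERB receptors), occupy RORE sequences and silence Arntl. Rora binds the same RORE sequences and activates. In liver and muscle the loop is set by the brain's clock and by meal times, and it drives daily cycles of metabolic genes. Arntl RNA and the RNAs of E-box targets such as Nr1d1 peak at roughly opposite times of day.

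Measurement was by Illumina bead arrays, on which every probe has a signal and a p-value of detection. Values below are log2 signals scaled to the same mean and spread on each array of a tissue. A probe was kept in a tissue if it was detected (p-value under 0.02) on at least 5 of its 15 arrays. Of the 10 genes, 9 kept a probe in liver and 8 in muscle (13 of the 19 probes in each). The Cry1 probe was detected on 0 of 15 arrays in either tissue, so no level can be given for it, and the Per3 probe was detected on 1 of 15 muscle arrays. A gene with several probes is described by its brightest kept probe. A change was called at an adjusted p under 0.05 in limma over all kept probes.

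The labelled tissues carried their own markers. Hepatocyte markers (9 of a list of 10 on the array) averaged 13.67 to 14.16 in SRT2104 livers, 13.61 to 13.86 in CR livers and 13.26 to 13.66 in SD livers, with Fgb detected on no array, so that SRT2104 livers lay above SD livers without overlap. Macrophage markers (5 of a list of 7) averaged 8.90 to 9.22 in SRT2104 livers, 8.74 to 9.05 in CR livers and 8.91 to 9.42 in SD livers. The part of these cell types in the liver results was not tested. Myofibre markers (8 of 8) averaged 13.40 to 14.80 in muscle. Several arrays stood apart. Of the muscle arrays, 3 (SRT2104 replicate 3, CR replicate 3 and SD replicate 1) had the median correlations 0.903, 0.811 and 0.966 with the other arrays of their group. CR replicate 2 of muscle had 0.964, below SD replicate 1, and the highest adipocyte and macrophage markers of the muscle arrays (8.93 and 8.29). It was kept among the 12 arrays used below, where without it both CR comparisons again had 5 of 8 clock genes called. Over the 15 arrays, CR against SD had 4 of 8 called with it and 2 without it. The shares of all genes called without that array are not given here. Liver arrays lay between 0.973 and 0.993. Hepatocyte markers averaged 12.40 on SRT2104 replicate 3 of muscle, against 7.15 to 7.80 on the other 4 SRT2104 arrays, 7.12 to 7.82 on CR arrays and 6.81 to 7.27 on SD arrays, with Alb, the albumin gene, detected on no muscle array. Myofibre markers averaged 11.00 on CR replicate 1 of liver, against 7.01 to 7.23 on SRT2104 arrays (0 of the 8 detected), 7.03 to 7.15 on the other 4 CR arrays and 6.87 to 7.70 on SD arrays (4 of the 8 not detected). Each change of a clock gene between diets in muscle is therefore given over all 15 arrays and over the 12 left without those 3. Other normalizations of muscle were run over all 15 only. Each CR result of liver was recomputed without CR replicate 1. Macrophage markers averaged 7.47 to 7.74 in SRT2104 muscle, 7.83 to 8.29 in CR muscle and 7.83 to 7.99 in SD muscle, and adipocyte markers (5 of 6) 7.06 to 7.17, 7.29 to 8.93 and 7.24 to 7.47, with Fabp4 and Retn detected on no muscle array. The part of these cell types in the muscle results was not tested. In whole tissue, fewer cells of a type and less RNA per cell cannot be told apart.

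The loop acts through short motifs, and 4 promoter windows that hold some are shown here, since the RNAs of these genes carry many of the results that follow. RefSeq windows of the GRCm38.p6 mouse build, running from 250 bases before to 50 bases after an annotated start, were found for 9 of the 10 genes (13 windows). Capitals mark matches to the motifs searched on both strands. These were the E-box CACGTG, its variant CACGTT, the D-boxes TTATGTAA and TTACGTAA, the cAMP response element TGACGTCA and the RORE. In 32851 windows of this length, 7.15% held CACGTG, 4.68% CACGTT, 0.938% TTATGTAA, 0.119% TTACGTAA, 1.79% TGACGTCA and 0.384% the RORE.
Arntl, plus strand of chr7:113207261-113207560, RORE: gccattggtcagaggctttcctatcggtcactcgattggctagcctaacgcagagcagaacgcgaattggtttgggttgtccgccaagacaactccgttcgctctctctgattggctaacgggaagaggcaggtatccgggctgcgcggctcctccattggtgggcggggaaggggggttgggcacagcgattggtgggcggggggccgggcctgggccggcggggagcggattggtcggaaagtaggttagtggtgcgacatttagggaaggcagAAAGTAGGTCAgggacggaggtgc
Ciart, minus strand of chr3:95882179-95882478, E-boxes: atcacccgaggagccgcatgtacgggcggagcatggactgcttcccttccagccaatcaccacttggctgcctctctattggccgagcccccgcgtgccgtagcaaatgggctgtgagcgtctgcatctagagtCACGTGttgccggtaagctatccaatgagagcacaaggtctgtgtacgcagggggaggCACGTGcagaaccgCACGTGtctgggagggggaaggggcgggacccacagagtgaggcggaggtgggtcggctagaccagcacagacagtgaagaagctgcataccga
Nr1d1, minus strand of chr11:98775328-98775627, E-box variant: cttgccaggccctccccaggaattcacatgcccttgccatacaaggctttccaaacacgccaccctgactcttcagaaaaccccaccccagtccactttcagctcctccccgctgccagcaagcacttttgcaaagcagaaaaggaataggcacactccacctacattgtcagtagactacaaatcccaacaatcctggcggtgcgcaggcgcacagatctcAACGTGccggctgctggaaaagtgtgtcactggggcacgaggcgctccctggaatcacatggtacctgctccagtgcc
Per3, minus strand of chr4:151044616-151044915, D-boxes: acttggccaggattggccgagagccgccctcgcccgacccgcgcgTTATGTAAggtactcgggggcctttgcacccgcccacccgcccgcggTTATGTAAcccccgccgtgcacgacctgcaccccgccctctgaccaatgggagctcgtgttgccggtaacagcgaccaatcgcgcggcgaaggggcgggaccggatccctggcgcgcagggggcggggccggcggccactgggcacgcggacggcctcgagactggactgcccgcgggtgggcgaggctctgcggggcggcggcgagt
The RORE of this Arntl start began 27 bases after the start site, and the window of its other start held no match. Ciart had 3 E-boxes, at -116, -58 and -44 from its start, and Per3 had 2 D-boxes, at -205 and -158. Nr1d1 had 1 E-box variant at -28, which reads AACGTG here because it lies on the other strand. No match overlapped another. Of the genes not printed, Per1 had an E-box at -166 of 1 start and Cry1 an E-box at -60 and an E-box variant at -79. Clock, Nr1d2 and Rora had no match in their windows. Per2 is only named. A match is a run of letters and was not tested as a binding site.

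In livers of SRT2104-fed mice, both members of the activating pair were lower than on SD. Arntl read 7.68, 7.54, 7.46, 7.42 and 7.47 in the 5 SRT2104 livers, against 8.76, 8.84, 8.20, 8.37 and 8.16 in the 5 SD livers. All SRT2104 livers lay below all SD livers, and the probe was detected on 2 of 5 SRT2104 arrays and on 5 of 5 SD arrays, so the lower group sat near the detection limit. Arntl fell by 0.96 on the log2 scale (standard error 0.12, 1.94-fold lower, adjusted p = 0.00104). With the background removed by neqc the same difference was -2.08. Clock, the partner of Arntl, read 9.80, 10.07, 9.86, 10.14 and 9.82 in SRT2104 livers, against 10.47, 10.57, 10.33, 10.47 and 10.42 in SD livers. The groups did not overlap, and Clock fell by 0.51 (standard error 0.09, adjusted p = 0.00673). Of the 3 Clock probes, only 1 was kept, in liver as in muscle. Rora, the receptor that activates through RORE sequences, averaged 10.75 ± 0.14 in SRT2104 livers and 11.08 ± 0.22 in SD livers (± standard deviation, n = 5 each), overlapping groups with a log2 change of -0.34 that did not pass (adjusted p = 0.0886). Rora passed with arrays scaled by their medians (-0.41, adjusted p = 0.0332) and without SD replicate 1.

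**Figure D1:**
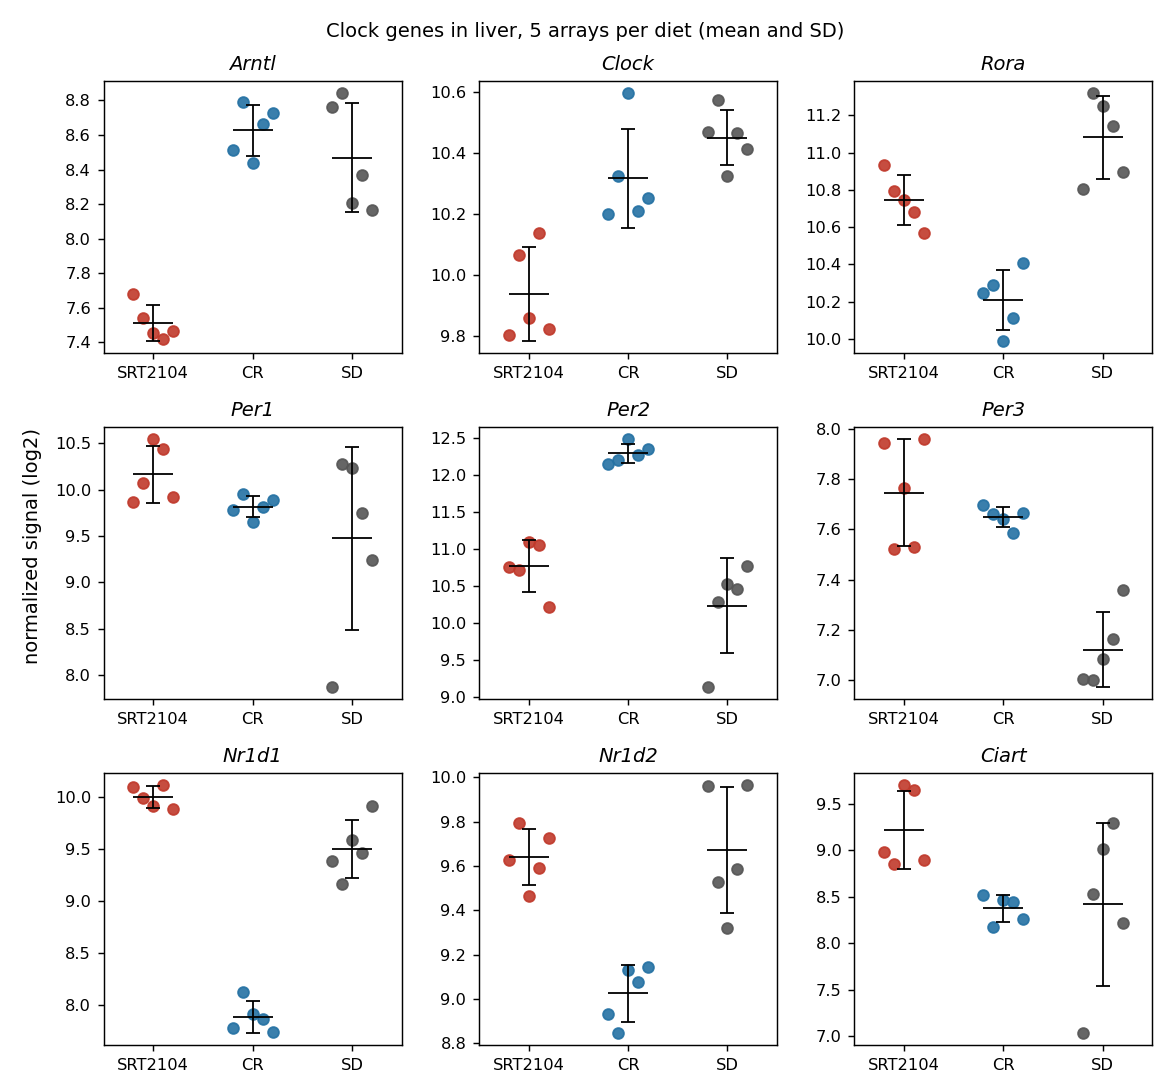
Normalized log2 signal of the 9 clock genes kept in liver, by diet (SRT2104, CR, SD from left to right). Points are single arrays, 5 per diet, and black bars are the mean and standard deviation. SRT2104 livers lie below all others for Arntl and Clock, and CR livers lie apart for Per2 (above) and Nr1d1 (below).

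Of the repressors in SRT2104 livers, 2 rose and none fell. Per3, a relative of the Per1 and Per2 repressors, read 7.95, 7.52, 7.77, 7.53 and 7.96 in SRT2104 livers, against 7.0, 7.0, 7.08, 7.16 and 7.36 in SD livers. The SD livers all lay below and were detected on 0 of 5 arrays (4 of 5 on SRT2104). Per3 rose by 0.62 (adjusted p = 0.00298), which amounts to at least 1.22-fold against the lowest detected signal of the SD arrays. Neqc gave 1.33 for Per3. Nr1d1 read 10.10, 9.99, 9.92, 10.11 and 9.88 in SRT2104 livers, against 9.38, 9.16, 9.59, 9.46 and 9.91 in SD livers. Only SD replicate 5 reached into the SRT2104 range. Nr1d1 rose by 0.50 (1.41-fold, adjusted p = 0.0228), its dimmer probe had 0.27 (adjusted p = 0.166), and the call was lost without SRT2104 replicate 1 or 4 and with the replicate number as a block (adjusted p = 0.0528). Nr1d2 had a log2 change of -0.03 (adjusted p = 0.921).

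Per1, Ciart and Per2 were not called on SRT2104 in liver. Per1, a repressor whose gene also responds quickly to hormones, read 9.86, 10.07, 10.54, 10.43 and 9.92 in SRT2104 livers, against 7.88, 10.27, 10.23, 9.75 and 9.24 in SD livers. Ciart, which blocks the Arntl and Clock pair, read 8.98, 8.85, 9.70, 9.65 and 8.90 in SRT2104 livers, against 7.04, 8.53, 9.02, 9.29 and 8.21 in SD livers. SD replicate 1 was the lowest array for both. Per2 read 10.76, 10.72, 11.10, 11.06 and 10.22 in SRT2104 livers, against 9.14, 10.28, 10.53, 10.47 and 10.77 in SD livers, where replicate 1 was again the lowest. The log2 changes were 0.69 for Per1 (adjusted p = 0.25), 0.80 for Ciart (0.156) and 0.53 for Per2 (0.215), and the dimmer probes of these 3 genes gave 0.50, 0.76 and 0.47 without passing. Without SD replicate 1 the changes were 0.29, 0.45 and 0.26 (adjusted p = 0.413, 0.247 and 0.357). In all, 4 of 9 genes (44.4%) were called, where 3.33% of all 7725 genes were. Per3, among these 4 and among the 3 below without overlap, was kept only through its detection on SRT2104 and CR arrays. Of the 9, 2 were higher (1.54% of all genes) and 2 lower (1.79%). The groups did not overlap for 3 of the 9 genes and for 5% of all genes. The median size of the change was 0.53 over the 9 genes and 0.10 over all genes.

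CR changed 5 genes of the loop in liver, and of these Per3 and Nr1d1 were also called on SRT2104, Per3 higher on both diets and Nr1d1 higher on SRT2104 but lower on CR. Per2, a repressor whose gene also responds to glucocorticoids, read 12.16, 12.21, 12.49, 12.28 and 12.35 in CR livers, against 9.14, 10.28, 10.53, 10.47 and 10.77 in SD livers. Every CR liver lay above every SD liver, and Per2 rose by 2.06 (standard error 0.23, 4.17-fold, adjusted p = 1.36e-05), with 2.10 at its other probe. Nr1d1 read 7.78, 8.12, 7.91, 7.86 and 7.74 in CR livers, against 9.38, 9.16, 9.59, 9.46 and 9.91 in SD livers. It fell by 1.62 (standard error 0.11, 3.07-fold lower, adjusted p = 1.24e-07). Its dimmer probe was detected on 0 of 5 CR arrays and 5 of 5 SD arrays, and was kept only through its detection on SRT2104 and SD arrays. That probe had a log2 change of -1.12 (adjusted p = 2.58e-06), at least 1.76-fold lower against the detection limit of the CR arrays. Nr1d2, the second REV-ERB receptor, averaged 9.03 ± 0.13 in CR livers and 9.67 ± 0.28 in SD livers (± standard deviation, n = 5 each) and fell by 0.65 (adjusted p = 0.000662). Rora averaged 10.21 ± 0.16 in CR livers and 11.08 ± 0.22 in SD livers and fell by 0.87 (adjusted p = 2.59e-05). Thus the receptors that silence and the receptor that activates through RORE sequences were all lower on CR. Per3 read 7.70, 7.66, 7.64, 7.58 and 7.66 in CR livers, all above the SD livers listed earlier, and rose by 0.53 (adjusted p = 0.000698), at least 1.14-fold against the detection limit of the SD arrays (1.17 on the log2 scale with neqc).

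Arntl itself averaged 8.63 ± 0.15 in CR livers and 8.47 ± 0.32 in SD livers (± standard deviation, n = 5 each), with a log2 change of 0.16 (adjusted p = 0.359). Clock had -0.13 (adjusted p = 0.287), Per1 0.34 (0.461) and Ciart -0.04 (0.935). On CR, 5 of 9 genes (55.6%) were called, where 27.6% of all genes were, 2 of them higher (14% of all genes) and 3 lower (13.6%), and the groups did not overlap for 5 of 9 against 16.3% of all genes. Without CR replicate 1 the count was again 5, where 1771 of all 7725 genes were called, with Per2 at 2.09 and Nr1d1 at -1.59. The median size of the change was 0.53 over the 9 genes and 0.15 over all genes. Per3, among the 5 called and the 5 without overlap, was kept only through its detection on SRT2104 and CR arrays.

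The 2 treatments share their SD arrays, so they were also compared directly. Of the 9 genes, 7 (77.8%) differed between SRT2104 and CR livers, where 28.2% of all genes did. Nr1d1 was 2.12 higher on SRT2104 than on CR (standard error 0.11, 4.34-fold, adjusted p = 4.96e-09), and Nr1d2 was 0.62 higher (adjusted p = 0.000867). Rora was 0.54 higher (adjusted p = 0.0014). Arntl was 1.11 lower on SRT2104 than on CR (adjusted p = 1.12e-05), Clock was lower by 0.38 (adjusted p = 0.00456), and Per2 had a difference of -1.52 (adjusted p = 0.000191). Neqc gave -2.34 for Arntl. The SRT2104 and CR livers did not overlap for any of these 6 genes. Non-overlap held for 7 of the 9 and for 22.7% of all genes. Ciart, at 0.84 (adjusted p = 0.0489), passed narrowly and was lost without CR replicate 1 (adjusted p = 0.0664) and in 10 of the 15 fits that each left out 1 liver array, and its other probe had 0.91 (adjusted p = 0.0554). Per1 and Per3 had 0.35 and 0.10 (adjusted p = 0.452 and 0.484).

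In muscle, the activating pair was again lower on SRT2104. Arntl read 7.95, 7.91, 7.88, 7.80 and 8.32 in SRT2104 muscle, against 9.25, 9.07, 8.56, 8.75 and 8.57 in SD muscle. The groups did not overlap. Arntl fell by 0.87 (standard error 0.14, 1.82-fold lower, adjusted p = 0.00159) over 15 arrays, and 12 arrays gave -0.74 (adjusted p = 0.000664). Clock read 9.04, 9.04, 8.89, 9.01 and 9.09 in SRT2104 muscle, against 9.996, 9.37, 9.41, 9.5 and 9.25 in SD muscle. SD replicate 1 was the highest, yet all SD arrays lay above all SRT2104 arrays. Clock fell by 0.49 over 15 arrays (adjusted p = 0.0336) and had -0.34 over 12 (adjusted p = 0.0349), and this call was lost in 8 of the 15 and 7 of the 12 fits that each left out 1 array. Rora read 9.60, 9.59, 9.52, 9.19 and 9.79 in SRT2104 muscle, against 10.75, 10.50, 9.92, 10.41 and 10.54 in SD muscle, again without overlap. Its change of -0.89 did not pass over 15 arrays (adjusted p = 0.183), in a fit whose spread included the 7.82 of CR replicate 3. Over 12 arrays it was -0.80 (adjusted p = 0.00124), and it passed in each of the 12 fits that left out 1 more.

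**Figure D2:**
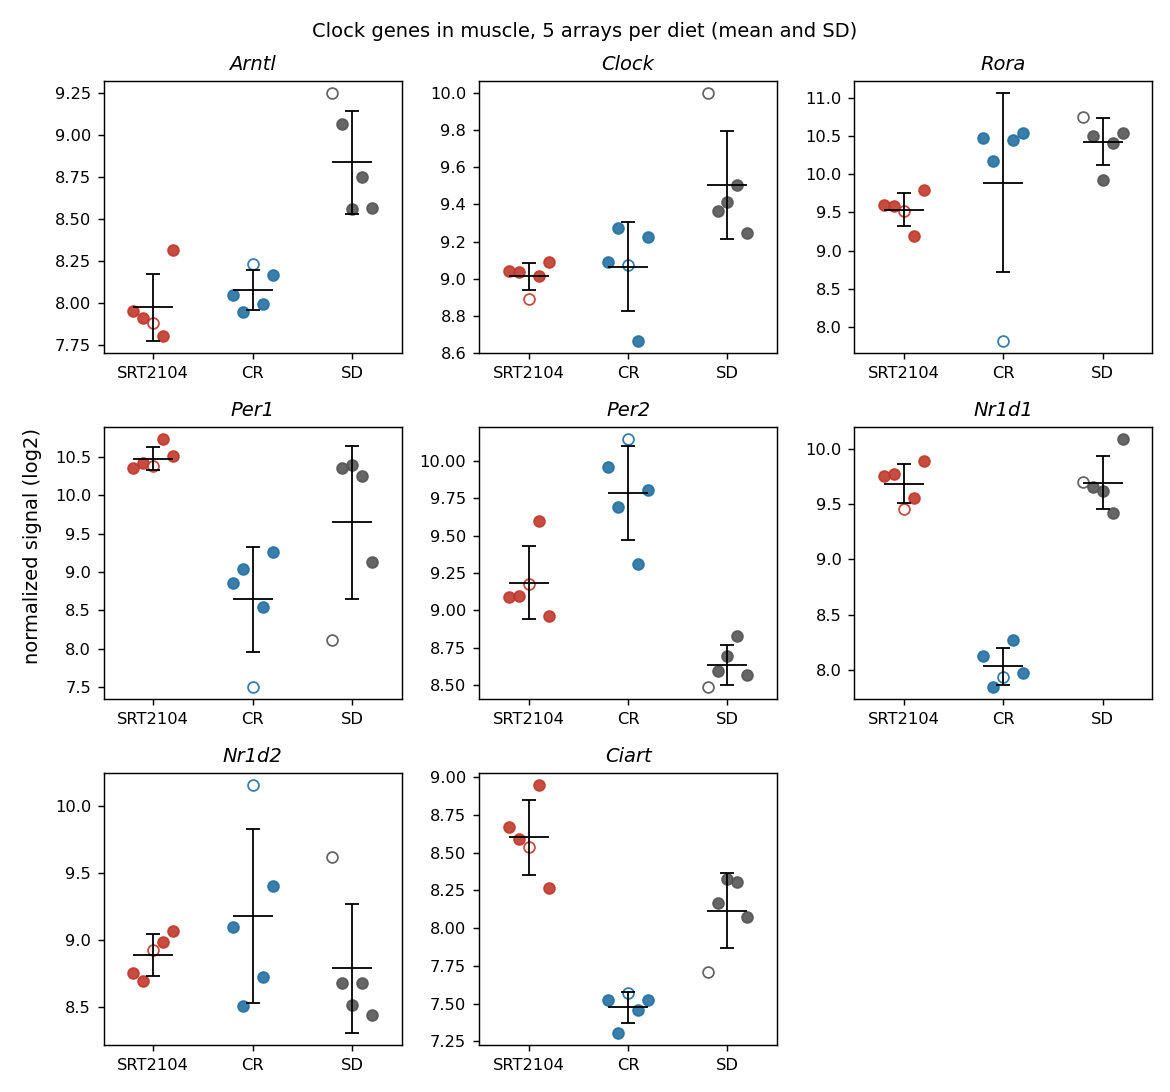
Normalized log2 signal of the 8 clock genes kept in muscle, by diet (SRT2104, CR, SD from left to right). Points are single arrays, open for the 3 that stood apart, and black bars are the mean and standard deviation over all 5. SD muscle lies above both other diets for Arntl, and CR muscle lies below both for Nr1d1 and Ciart.

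Among the repressors of SRT2104 muscle, Per2 and Ciart rose. Per2 read 9.09, 9.10, 9.17, 9.60 and 8.96 in SRT2104 muscle, against 8.49, 8.59, 8.70, 8.83 and 8.56 in SD muscle. All SRT2104 arrays were above all SD arrays, with a rise of 0.55 over 15 arrays (adjusted p = 0.0286) and 0.52 over 12 (0.0176), while the dimmer probe had 0.26 in both (adjusted p = 0.243 and 0.18). The call over 15 arrays was lost without SRT2104 replicate 4 or SD replicate 1, 2 or 5. Ciart read 8.67, 8.59, 8.54, 8.95 and 8.27 in SRT2104 muscle, against 7.71, 8.17, 8.32, 8.30 and 8.08 in SD muscle. SRT2104 replicate 5 fell within the SD range. Ciart rose by 0.49 over 15 arrays (adjusted p = 0.0296) and 0.40 over 12 (0.0214), and its other probe by 0.48 and 0.37. This call was lost in 6 of the 15 fits and 4 of the 12 fits that left out 1 array, and with neqc (0.75, adjusted p = 0.123). Per1 read 10.35, 10.42, 10.38, 10.73 and 10.51 in SRT2104 muscle, against 8.12, 10.35, 10.39, 10.24 and 9.13 in SD muscle, a change of 0.83 (adjusted p = 0.212) over 15 arrays and 0.47 (0.145) over 12. As in liver, SD replicate 1 was the lowest array for Per1. Nr1d1 and Nr1d2 had -0.01 and 0.10 over 15 arrays (adjusted p = 0.968 and 0.844) and 0.05 and 0.30 over 12 (0.806 and 0.174). The dimmer probe of Nr1d2 had -0.16 over 15 arrays and -0.07 over 12 (adjusted p = 0.521 and 0.651). The calls came to 4 of 8 genes (50%), where 9.31% of all 7752 genes were called over 15 arrays, and to 5 of 8 (62.5%) over 12 arrays, where 30.7% were. Over 15 arrays 2 were higher (3.99% of all genes) and 2 lower (5.33%), and over 12 arrays 2 were higher (18.9%) and 3 lower (11.8%). The groups did not overlap for 4 of 8 genes (17.2% of all genes) and for 5 of 8 (34.4%). The median size of the change over the 8 genes was 0.52, against 0.18 over all genes (0.44 against 0.17 over 12 arrays).

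On CR, muscle had a smaller background of called genes, 0.426% over 15 arrays, and the clock genes supplied 4 of the 33. Nr1d1 read 8.13, 7.85, 7.94, 8.27 and 7.98 in CR muscle, against 9.70, 9.65, 9.62, 9.42 and 10.09 in SD muscle. It fell by 1.66 (standard error 0.13, 3.17-fold lower, adjusted p = 1.37e-05), and 12 arrays gave -1.64 (adjusted p = 0.000114). Per2 read 9.96, 9.69, 10.15, 9.31 and 9.80 in CR muscle, all above the SD muscles, and rose by 1.15 (2.22-fold, adjusted p = 0.00494), or 1.02 over 12 arrays (0.00559). These 2 genes kept their calls in every fit that left out 1 array.

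Arntl read 8.05, 7.95, 8.23, 7.99 and 8.16 in CR muscle, below every SD array. It fell by 0.76 over 15 arrays (adjusted p = 0.0237) and by 0.70 over 12 (0.0144), with the call lost in 6 of the 15 fits and 0 of the 12 fits that left out 1 array. It was also lost with quantile normalization (-0.67, adjusted p = 0.0656) and with neqc (-0.997, 0.0971). Ciart read 7.52, 7.31, 7.57, 7.46 and 7.52 in CR muscle, also below every SD array, and fell by 0.64 over 15 arrays (adjusted p = 0.0482, lost in 11 of 15 such fits) and by 0.77 over 12 (0.00609, lost in 0 of 12). The other Ciart probe had -0.60 over 15 arrays (adjusted p = 0.0799), in overlapping groups, and -0.77 over 12 (0.00594). Neqc gave -1.53 for Ciart, and median scaling -0.57 (0.236). Per1 read 8.86, 9.04, 7.50, 8.55 and 9.26 in CR muscle. Its change of -1.0 did not pass over 15 arrays (adjusted p = 0.403). Over 12 arrays it fell by 1.10 (adjusted p = 0.0331, lost in 5 of the 12 fits) and its other probe by 0.91 (0.0219). Clock, Rora and Nr1d2 had -0.44, -0.53 and 0.39 over 15 arrays without passing (adjusted p = 0.243, 0.566 and 0.549), and -0.32, 0.07 and 0.35 over 12 (0.174, 0.879 and 0.3). The dimmer probe of Nr1d2 had 0.07 over 15 arrays and 0.06 over 12 (adjusted p = 0.816 and 0.843). CR replicate 3 was the lowest CR array for Rora, at 7.82, and the highest for Nr1d2, at 10.16. Of the 8 genes (50% called), 1 rose over 15 arrays (0.0516% of all genes) and 3 fell (0.374%). Over 12 arrays (62.5% called, where 1.91% of all genes were) 1 rose (0.439%) and 4 fell (1.47%). The groups did not overlap for 4 of the 8 in both settings (3.28% and 9.29% of all genes). The median size of the change over the 8 genes was 0.70, against 0.15 over all genes (0.73 against 0.09 over 12 arrays).

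**Figure D3:**
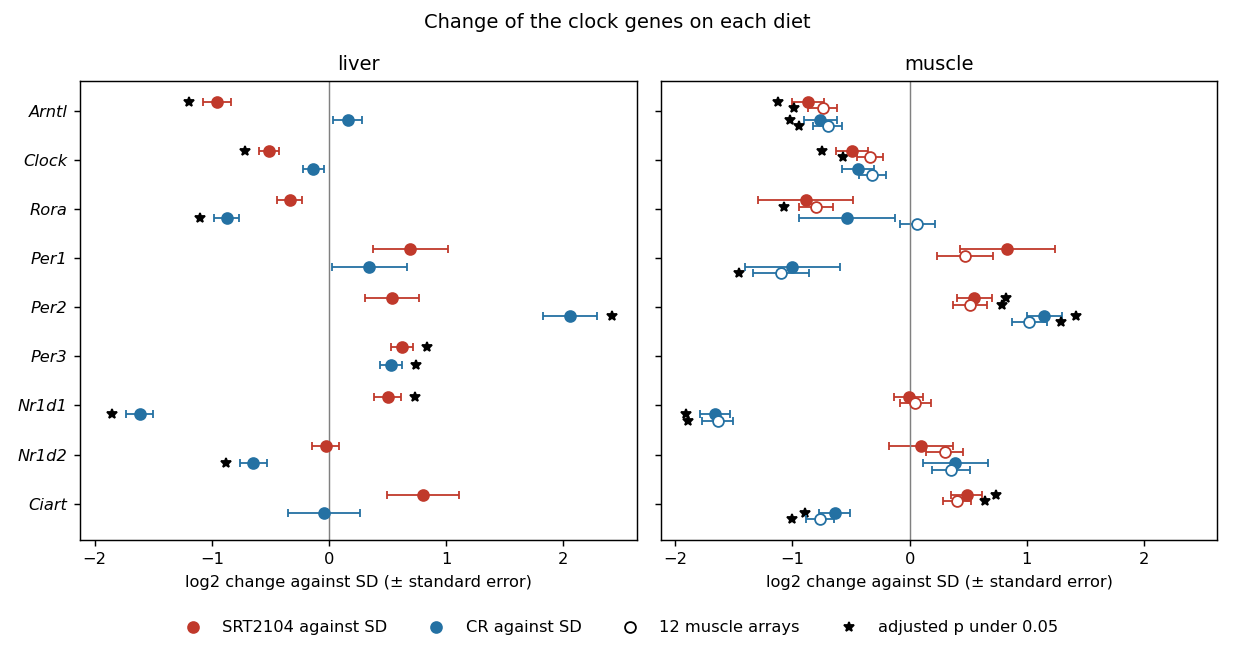
Log2 change of each clock gene against SD, on SRT2104 (red) and CR (blue), in liver and muscle. Bars are the standard error in limma, filled points use all 15 arrays of a tissue, open points the 12 muscle arrays, and stars mark an adjusted p under 0.05. Arntl fell on SRT2104 in both tissues and on CR in muscle, where liver had a change of 0.16, and Nr1d1 fell on CR in both tissues.

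In the direct comparison of the treated muscles, Nr1d1 was 1.65 higher on SRT2104 than on CR (adjusted p = 1.48e-05), Ciart 1.13 higher (0.000548) and Per1 1.83 higher (standard error 0.41, 3.57-fold, 0.0123). Neqc gave 2.27 for Ciart. All SRT2104 arrays lay above all CR arrays for these 3 repressors. Over 12 arrays the differences were 1.69 for Nr1d1, 1.17 for Ciart and 1.57 for Per1, all called. Per2 was lower on SRT2104 than on CR, by a log2 difference of -0.60 (adjusted p = 0.0203), in overlapping groups, and by -0.51 over 12 arrays (0.0182). The call over 15 arrays was lost without SRT2104 replicate 1 or 5 or CR replicate 1. Arntl, Clock and Nr1d2 had -0.10, -0.05 and -0.29 over 15 arrays (adjusted p = 0.691, 0.861 and 0.552). Over 12 arrays they had -0.04, -0.02 and -0.06 (0.808, 0.9 and 0.8). The dimmer probe of Nr1d2 had -0.23 over 15 arrays and -0.13 over 12 (adjusted p = 0.341 and 0.371). Rora had -0.35 over 15 arrays (adjusted p = 0.637) and -0.87 over 12 (0.000679). The calls were 4 of 8 over 15 arrays (9.98% of all genes) and 5 of 8 over 12 (33.4%). The groups did not overlap for 3 of 8 genes over 15 arrays (9.48% of all genes) and for 4 of 8 over 12 (30.1%).

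Whether a diet acted differently in the tissues was asked with an interaction term, fitted to the 8998 probes that both tissues kept, on 1 scale for both. For SRT2104, 0 of 8 genes passed over all 30 arrays, 1 had an unadjusted p under 0.05, and 9.76% of all genes were called. Arntl had a difference of 0.04 (standard error 0.19, adjusted p = 0.937) and Clock one of 0.05 (0.17, 0.894), and Nr1d1, called in liver only, had 0.49 (0.18, 0.0737). Arntl was near its detection limit in SRT2104 livers, and with the background removed by neqc its difference was -0.66 (standard error 0.31, adjusted p = 0.212). Without the 3 muscle arrays, Rora passed at 0.54 (adjusted p = 0.0304), its change being more negative in muscle, and 27.8% of all genes were called. For CR, 1 of 8 genes (12.5%) passed over 30 arrays, where 3.57% of all genes were called. This was Arntl, at 0.96 (standard error 0.19, adjusted p = 0.00521), at 0.90 (0.00207) over 27 and at 1.24 (0.0441) with neqc. The CR effect on Arntl was thus higher in liver than in muscle, and this call held in all 30 fits that left out 1 array. The dimmer probe of Per2 had 1.06 (adjusted p = 0.034, 0.0553 without CR replicate 1 of liver), whereas the brighter probe had 0.72 (0.165). Over 27 arrays, 4 of 8 genes passed (10.2% of all genes), with Per1 at 1.51 (0.027), Nr1d2 at -0.98 (0.00267) and Rora at -0.88 (0.00362) beside Arntl. For Nr1d2, only 1 probe was kept in both tissues.

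**Figure D4:**
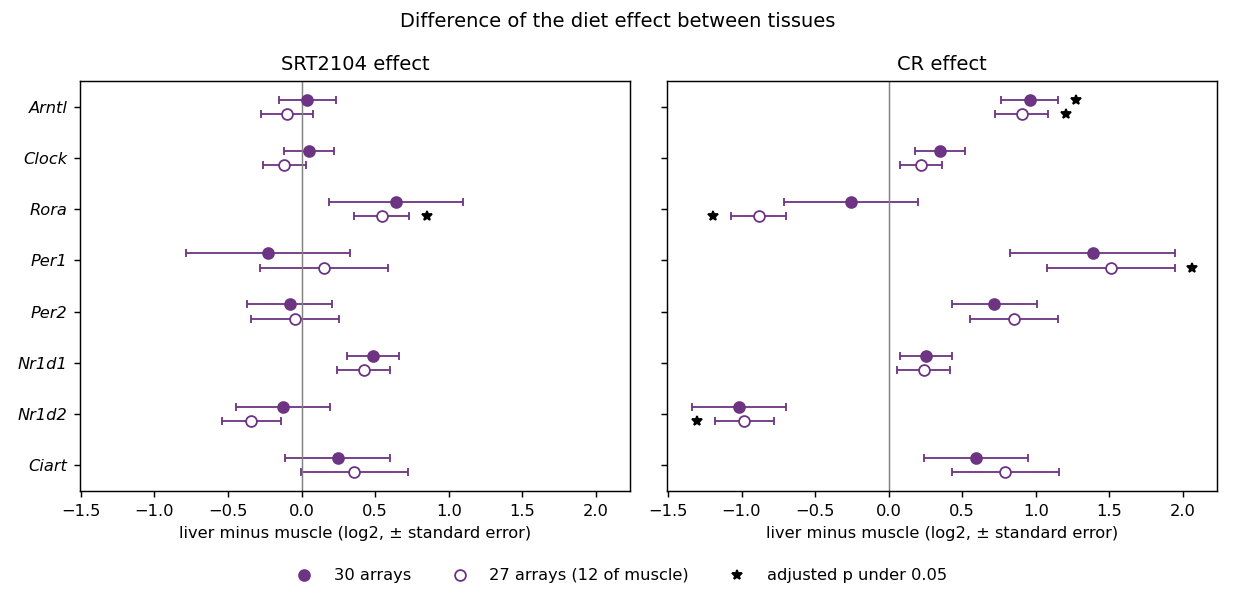
Difference between the effect in liver and that in muscle (log2), for SRT2104 and CR against SD, with the standard error in limma. Filled points use all 30 arrays, open points the 27 without the 3 muscle arrays that stood apart, and stars mark an adjusted p under 0.05. For SRT2104, Arntl and Clock lie close to 0 on this scale, where neqc gave -0.66 for Arntl, and for CR, Arntl lies at 0.96 and 0.90.

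On SD, Arntl averaged 8.15 ± 0.29 in liver and 9.22 ± 0.32 in muscle (± standard deviation, n = 5 each, on the scale shared by both tissues), a difference of -1.07 (adjusted p = 6.09e-08). Nr1d1 averaged 9.12 ± 0.26 in liver and 10.14 ± 0.26 in muscle (-1.01, adjusted p = 3.56e-08). Per1 averaged 9.10 ± 0.94 in liver and 10.08 ± 1.08 in muscle (-0.98, adjusted p = 0.0278), and 27 arrays gave -1.40 (0.000173). The Per1 call over 30 arrays was lost with neqc (-1.39, adjusted p = 0.0662) and in 5 of the 30 fits that left out 1 array, which were those without SD replicate 1 (-0.61, 0.142) or 5 of liver and SD replicate 2, 3 or 4 of muscle. Per2 averaged 9.82 ± 0.60 in liver and 9.0 ± 0.15 in muscle, higher in liver by 0.82 (adjusted p = 0.000787). These were 4 of 8 genes (50%), where 72.7% of all genes were called between the tissues. Over 27 arrays Arntl, Nr1d1 and Per2 had -0.96, -1.01 and 0.77, all called. Nr1d2 passed there too (0.34, adjusted p = 0.0324), which made 5 of 8 genes, where 80.2% of all genes were called.

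The SD group was also the most variable one for most of the loop in liver. The standard deviation of the 5 arrays was largest in the SD group for 7 of 9 clock genes, where it was so for 53.5% of all genes, and 6 of 9 against 48.7% without SD replicate 1. In that group the standard deviation was 0.99 for Per1, 0.88 for Ciart and 0.64 for Per2, against 0.31, 0.42 and 0.35 on SRT2104 and 0.11, 0.15 and 0.13 on CR. Without SD replicate 1 it was 0.49, 0.48 and 0.20, so that for Per2 the SRT2104 livers then varied more. In muscle the SD group was the most variable for 5 of 8 clock genes (14.3% of all genes), and for 4 of 8 over 12 arrays (20.1%). These shares are descriptions of the arrays.

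Within diets, single arrays were compared by their deviation from the mean of their diet. Of 15 relations with Arntl (8 genes in liver, 7 in muscle; permutation test within diets, 100000 resamples, two-sided), 1 passed after adjustment, that of Nr1d2 in muscle (r = 0.68, permutation p = 0.00015, adjusted p = 0.00225, n = 15). It had a Spearman rho of 0.61 (permutation p = 0.0105, adjusted p = 0.158), and r was 0.54 without the 2 arrays farthest from the median in Arntl and 0.52 over 12 arrays (permutation p = 0.00764 and 0.0123, adjusted p = 0.115 and 0.184). With the deposited z-scores r was 0.49 (permutation p = 0.026, adjusted p = 0.187). In liver, r with Arntl was -0.58 for Per2, -0.53 for Nr1d1 and -0.51 for Ciart, and none passed (permutation p = 0.0656, 0.167 and 0.231, adjusted p = 0.246, 0.5 and 0.564). Spearman's rho of these 3 was -0.57, -0.44 and -0.47. Without the 2 arrays farthest in Arntl they were -0.26, 0.03 and -0.16. In muscle, r was -0.61 for Ciart and 0.55 for Clock, and neither passed (permutation p = 0.0497 and 0.0571, adjusted p = 0.246 for each). Over 12 arrays these were -0.50 and 0.18, and without the 2 farthest arrays 0.04 and 0.15.

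Over all 15 livers, diets included, the gene whose level ran most opposite to that of Arntl among 7724 was Dbp, at r = -0.93. Dbp is a D-box activator switched on by the Arntl and Clock pair. It read 13.47, 13.27, 13.61, 12.80 and 13.44 in SRT2104 livers, 10.70, 10.64, 10.64, 10.57 and 10.45 in CR livers and 11.05, 10.66, 11.92, 12.25 and 12.50 in SD livers. SRT2104 livers lay above both other diets. The next most opposite were Gne, Zfp457, Gpn3 and Brdt (-0.87 to -0.85), and the most alike were Lgalsl, Crip2, Riok1, Acbd3 and Dapk1 (0.93 to 0.90). Of the clock genes, Clock stood in place 92 from the most alike (0.76), and Nr1d1 and Ciart had -0.74 and -0.71. Without CR replicate 1, all 5 of the most alike and 3 of the 5 most opposite genes stayed in their lists, with Dbp at -0.94. In muscle the most alike were Pcmtd1, Wdr37, Ubxn2a, Pum2 and Tor1aip1 (0.90 to 0.86), with Clock in place 11 (0.83, and place 141 at 0.70 over 12 arrays), and the most opposite were Lmbr1l, Mvd, Luc7l, Phkg2 and Tapbpl (-0.87 to -0.82). Over 12 arrays these lists shared 0 of 5 genes at either end. These correlations follow the differences between diets, and they are given as a description without a test.

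For 40 further genes of the clock and its output (33 on the array, 23 tested in liver, 21 in muscle), 2 of 23 (1 in each direction) were called on SRT2104 in liver, where 3.33% of all genes were. Dbp rose by 1.64 (adjusted p = 0.00455) and Elovl3, a fatty acid elongase with a daily rhythm, fell by 0.89 (0.0102). On CR, 6 of 23 rose and 3 fell, where 14% of all genes rose and 13.6% fell. Those that rose were the repressor Bhlhe40 (0.73), the D-box activator Tef (0.58), the deubiquitinase Usp2 (1.52), the RNA-binding cofactor Sfpq (0.35), the NAD-producing enzyme Nampt (0.89) and Cyp7a1, the rate-limiting enzyme of bile acid synthesis (1.78). Those that fell were Dbp (-1.08), Elovl3 (-2.02) and the ubiquitin ligase subunit Btrc (-0.27). Without CR replicate 1, 6 rose and 2 fell, Btrc being lost, where 1771 of all 7725 genes were called in either direction. In muscle, Dbp read 12.31, 12.22, 11.96, 11.89 and 12.04 on SRT2104, against 10.91, 10.60, 10.85, 11.16 and 11.60 on SD, and rose by 1.06 over 15 arrays (adjusted p = 0.00298) and over 12 (0.00129). The deubiquitinase Usp7 fell by 0.73 and the cofactor Wdr5 rose by 0.40 (adjusted p = 0.00439 and 0.0108), which made 3 of 21 called over 15 arrays, where 9.31% of all genes were. Over 12 arrays, 6 of 21 rose and 2 fell on SRT2104, where 18.9% of all genes rose and 11.8% fell, with Tef (0.70), Bhlhe40 (0.44), Hdac3 (0.38) and Timeless (0.37) added to the rises and Sirt1 (-0.29), the target of SRT2104, to the falls. On CR, 0 of 21 were called over 15 arrays (0.426% of all genes), and Csnk1d (-0.52), Gsk3b (-0.69) and Usp7 (-0.43), which modify clock proteins, fell over 12 (1.47% of all genes fell). The median size of the change in these lists on SRT2104 was 0.13 in liver and 0.23 in muscle, against 0.10 and 0.18 over all genes.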

How the data were processed

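Liver and muscle RNA of 30 samples was labelled and hybridised to Illumina MouseRef-8 v2 bead arrays by the authors. The submitters' notes name GenomeStudio 1.6.0 for the extraction. Signals were deposited as linear intensity values with no background taken off, so that changes of dim probes read smaller than they are. The deposited detection p-value compares each probe with the negative controls of its array. Each deposited score is a z-score, taken on natural log signals over all 25697 probes. Depth does not apply to arrays, and the 5 arrays per group limit the precision. The signal columns name tissue and diet only, so the replicate numbers follow the score columns.

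A probe stayed in a tissue if its detection p-value was under 0.02 on 5 or more of 15 arrays, as for 11065 probes in liver and 10792 in muscle. The scores of each array were scaled to mean 0 and equal spread over the kept probes, multiplied by the tissue's mean array standard deviation (natural log, 1.19 for liver and 1.03 for muscle) and written in log2 units. Diets were set against each other per tissue in 1 limma model (version 3.58.1, R 4.3.3) over its 15 arrays with Benjamini-Hochberg adjustment over all kept probes and a threshold of 0.05. Counts over genes use the brightest kept probe of each gene. Effects in the tissues were compared as interaction terms over 8998 probes shared by the tissues, treating their arrays as independent. Symbols came from the platform annotation (23978 probes with 1 symbol, 1719 with none). The fits were tested on simulated data. Neqc is limma's background correction and quantile normalization of the signals, here set by the detection p-values.

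All clock genes listed are named, with the 5 genes most like and most unlike Arntl at either end of the correlations. The members and lists were chosen with earlier results of these data known. Replicate numbers were not taken as pairing the samples, since no comparison had every correlation of equal-numbered deviations over 0.1. These ran from -0.251 to 0.306 between diets and from -0.124 to 0.363 between liver and muscle of 1 diet, both ends on SD, and the consensus correlation of equal-numbered liver and muscle arrays was 0.049. Alternatives were the deposited z-scores, other detection filters, quantile normalization, median scaling, neqc, the replicate number as a block, only the 2 diets compared, the methods' t-test and each array left out. Leaving out each of the 12 muscle arrays in turn, and neqc between the tissues, were added after seeing the data.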

Additional observations from a re-analysis of the deposited data

Results flagged for a closer look

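Of 51 groups of 5 arrays examined for 1 value far from the rest, 3 had such a value, and a test of this kind marks about 1 in 20 groups by chance. Arntl read 8.32 in muscle of SRT2104 replicate 5, above the 7.80 to 7.95 of the other 4 SRT2104 muscles and below the 8.56 of the lowest SD muscle. Rora read 7.82 in muscle of CR replicate 3, against 10.17 to 10.54 in the other 4 CR muscles. That array had the lowest median correlation with its group among the muscle arrays (0.811). The lowest share of detected probes in muscle (26.7%) was on a CR array whose replicate number the signal columns do not give. Nr1d2 read 9.62 in muscle of SD replicate 1, above the 8.44 to 8.69 of the other 4 SD muscles.

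The effect of CR differed between the tissues for Arntl and for 1 probe of Per2, by an interaction term in limma. For Arntl the effect in liver minus that in muscle was 0.96 (adjusted p = 0.00521). For the dimmer probe of Per2 it was 1.06 (adjusted p = 0.034), and for its brighter probe 0.72 (adjusted p = 0.165).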

How the results depend on the processing

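Over 75 results for single genes and 2139 recomputed values, 2021 stayed on their side of the threshold, 92 lost the call and 26 gained it. No called value turned, and 42 values that were not called changed sign. The methods' t-test called 0 clock genes on SRT2104 in liver after Benjamini-Hochberg adjustment (5 at an unadjusted p under 0.05), against 4 in limma. That t-test called only 8 of all 7725 genes there. On CR in muscle it called 1 clock gene, which was the only 1 called of all 7752 genes. On SRT2104 in liver, probes detected on all arrays gave 2 calls, in a setting that did not hold the Arntl and Per3 probes. On SRT2104 in muscle, 4 calls became 2 with the deposited z-scores, 1 with no filter and 2 with neqc, and the replicate number as a block gave 2. On CR in muscle, 4 calls became 2 with quantile normalization, with median scaling, with only the 2 diets compared and with the replicate block. The block moved no other count of calls by over 1.5 times. The interactions gave 1 call for SRT2104 and 4 for CR without the 3 muscle arrays. Over probes detected on all arrays, the CR interaction gave 0 and the difference between tissues on SD gave 2. The Arntl and Per1 probes were not in that setting, so their calls were not tested there. The relation of Nr1d2 with Arntl in muscle was 1 call that became 0 with Spearman's rho, without the 2 farthest arrays, with the z-scores and over 12 arrays. The causes were not tested.

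With each array left out in turn, calls in liver ran from 3 to 5 for SRT2104 against SD, stayed at 5 for CR against SD and ran from 6 to 7 between SRT2104 and CR. In muscle they ran from 1 to 5, from 2 to 4 and from 3 to 5 over 15 arrays, and from 3 to 5, from 4 to 5 and from 4 to 5 over 12. The interactions ran from 0 to 2 for SRT2104 and from 1 to 3 for CR, and the tissues on SD from 3 to 5. Neqc and the rescaled signals were not run over the 12 arrays. Signal over background had group medians between 2.17 and 3.97.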
